A study of Mus musculus with 2 samples.

Results

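The strongest TOBF1 peaks far from the ends of protein-coding genes in mouse embryonic stem (ES) cells are described here. They were chosen by 2 values. The deposited peak score had to be 40 or more. The peak midpoint had to lie more than 10 kb away from both ends of all protein-coding genes on chromosomes 1 to 19. In all, 746 of the 12181 deposited peaks met the rule. They made up 9.18% of the 8124 autosomal peaks beyond 10 kb, called distal below. The other 7378 distal peaks, with lower scores, served as the comparison. A gene that a peak is said to be near is its nearest protein-coding gene, at whatever distance. Among the 3421 autosomal peaks closer to a gene end, 225 (6.58%) reached the same score, and over all 11545 autosomal peaks 971 (8.41%) did. Because the score chose the members, these shares describe the choice and nothing is read from them.

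The data came from 1 ChIP-Seq library of R1/E mouse ES cells, grown in serum with LIF, a cytokine that keeps such cells undifferentiated. The cells carried TOBF1 tagged on a bacterial artificial chromosome (BAC), chromatin was crosslinked with formaldehyde and DSG, and anti-GFP antibody was used to pull down the tagged protein. An input library from the same tagged cells, made without antibody, belongs to the series, and no file of it was used here. Both libraries carry the tagged construct, and cells without the tag were not analysed here, so binding of TOBF1 and signal that the antibody gives without it cannot be told apart. Whether the cells were 1 clone is not given in the sources used here. No expression values were used, so the cell type was not checked against markers. With 1 library there is no replicate error and no test was run. Intervals on shares are exact 95% binomial (Clopper-Pearson) intervals, and those on medians are exact order-statistic intervals. They treat peaks as independent, cover counting error only, and peaks of 1 library are not replicates. The read depth behind the peaks is unknown.

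TOBF1 is the protein of A830080D01Rik, which RefSeq lists as Bclaf3, and has been tied in ES cells to the lncRNA Panct1 and to sites that carry Oct-Sox sequences. Distal sites bound by regulatory proteins often lie in enhancers, stretches of DNA that can raise transcription of a gene from afar, and the gene nearest on the chromosome need not be the gene they act on. Core ES cell factors such as Oct4, Sox2 and Nanog are known to bind many such sites. In ChIP-Seq, distal peaks can also fall on unannotated promoters, repeats or sites that open chromatin gives with any antibody.

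No genome sequence was used here, so the sequence under most of these peaks is not shown. The RefSeq promoter table for GRCm38.p6, whose chromosome positions are those of mm10, holds 250 bases before and 50 bases after annotated starts. It lacks some genes, whose starts could not be counted. Members on 1 autosome for which it holds no windows were left out of the count below, which leaves 724. Of these, 5 overlapped a promoter window (0.691%, 0.225 to 1.60%), against 58 of 7076 other distal peaks (0.820%, 0.623 to 1.06%). For each of these 5 peaks, 1 stretch in which it overlaps a promoter window is printed, because they are the members for which sequence was at hand. For 4 of the 5 the promoter belongs to a lncRNA gene, which the distance rule did not use. The remaining member lay at an internal annotated start of the protein-coding gene 1700019D03Rik, 31.3 kb from the nearest gene end, with its midpoint 2 bp before that start. This peak also overlapped a second window of the same gene, which is not printed and held none of the motifs searched below. Each stretch is given 5′ to 3′ on the gene's strand with the score of its peak, and capitals mark a Sox core match.

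Gm20609, score 100.1, plus strand, chr10:71310495-71310594: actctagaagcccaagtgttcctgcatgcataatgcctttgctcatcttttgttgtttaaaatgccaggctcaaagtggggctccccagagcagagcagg
1700019D03Rik, score 88.2, minus strand, bases before the start only, chr1:52953615-52953843: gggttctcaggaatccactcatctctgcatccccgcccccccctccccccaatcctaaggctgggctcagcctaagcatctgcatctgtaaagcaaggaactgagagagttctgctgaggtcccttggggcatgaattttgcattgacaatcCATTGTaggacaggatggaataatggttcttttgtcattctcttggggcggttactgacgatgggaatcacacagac
Gm40987, score 61.0, minus strand, chr13:65990997-65991246: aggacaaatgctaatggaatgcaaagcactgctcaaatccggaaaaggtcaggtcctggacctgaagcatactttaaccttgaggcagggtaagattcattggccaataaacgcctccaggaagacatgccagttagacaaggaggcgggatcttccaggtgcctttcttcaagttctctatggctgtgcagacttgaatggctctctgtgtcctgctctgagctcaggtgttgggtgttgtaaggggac
Gm38777, score 46.7, plus strand, chr6:25032939-25033190: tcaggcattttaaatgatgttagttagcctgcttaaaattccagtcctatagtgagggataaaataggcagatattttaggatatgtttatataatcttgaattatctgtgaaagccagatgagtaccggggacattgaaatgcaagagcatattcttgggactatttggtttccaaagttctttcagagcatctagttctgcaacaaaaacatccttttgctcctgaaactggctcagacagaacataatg
Gm34299, score 45.8, plus strand, chr19:42409868-42410026: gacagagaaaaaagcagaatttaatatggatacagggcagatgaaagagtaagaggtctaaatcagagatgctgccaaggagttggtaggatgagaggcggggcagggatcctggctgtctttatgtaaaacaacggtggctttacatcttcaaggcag

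The whole windows that these 5 peaks overlapped, 6 in number because 1700019D03Rik had 2, were searched on both strands for 6 motifs. The octamer ATGCAAAT bound by Oct factors was in 0 of the 6, in 6 of the 64 windows overlapped by other distal peaks, and in 1.74% of all 32851 windows. The Sox core ACAATG was in 1 of the 6, in 11 of the 64 and in 12.6% of all windows, and its match in 1700019D03Rik is on the other strand, as CATTGT. The Esrrb-type motif TCAAGGTCA (0.423% of all windows), the Klf-type motif GGGTGTGG (3.56%), the AP-1 motif TGACTCA (5.20%) and the E-box CACGTG (7.15%) were in none of the 6, and in 0, 10, 4 and 2 of the 64. None of these motifs contains another. With 6 windows these counts describe the printed loci and nothing further.

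Scores ran from 40.1 to 216.1 with a median of 54.5 and quartiles of 46.3 and 70.6, against a median of 9.61 in the other distal peaks. Of the members, 296 (39.7%) scored 60 or more, 128 (17.2%) scored 80 or more, 43 (5.76%) scored 100 or more and 13 (1.74%) scored 120 or more. The members just inside the threshold were nearest to Itga9 (40.0903), Rnf111 (40.0994) and Csrp2 (40.0994). Distal peaks just outside it were nearest to Pla2g4a (39.98), Zfp980 (39.90) and Lmx1b (39.87). At the distance limit, members near Dmac1 (10.04 kb), Etfbkmt (10.2 kb) and Sfxn1 (10.2 kb) were just inside. Peaks of score 40 or more near Spire1 (9.75 kb), Eif4e2 (9.69 kb) and Ankrd6 (9.69 kb) were just outside.

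**Figure D1:**
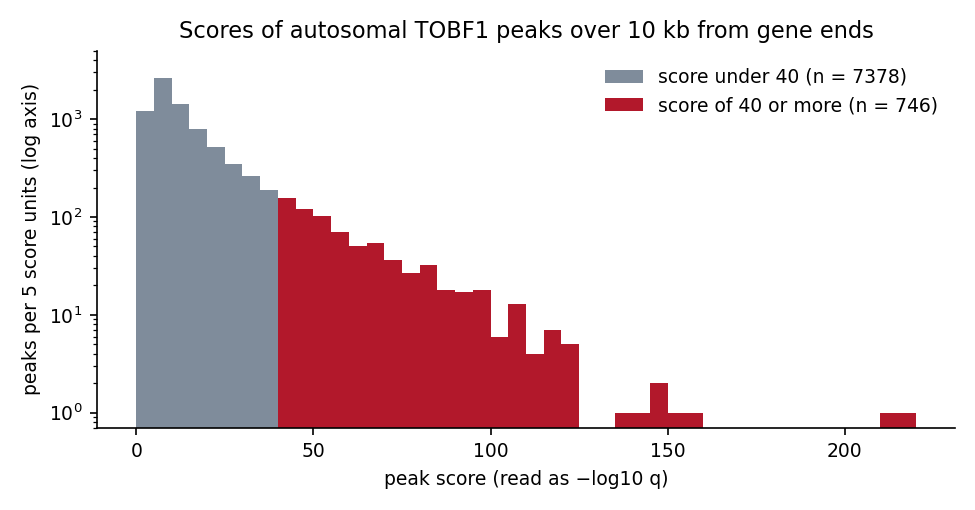
Number of autosomal distal peaks (log axis) per 5 units of deposited score, read as −log10 of a q-value, with members in red and the other distal peaks in grey. The 746 members lie at and above the threshold and the 7378 other distal peaks, with a median of 9.61, below it.

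The 20 highest members scored from 115.0 to 216.1. Their midpoints fell inside a protein-coding gene in 10 cases, and 7 had another peak within 10 kb. Another 7 had none within 100 kb. The 2 highest stood well above the rest. The first (score 216.1, 411 bp, chr13:6922334-6922744) lay outside genes, 273.5 kb from Pfkp, the platelet-type phosphofructokinase of glycolysis. The second (211.6, 480 bp, chr3:122145325-122145804) lay inside Abca4, a lipid transporter of photoreceptors, with no other peak within 100 kb. The next, at 158.4, lay inside Sptlc2, a subunit of the enzyme that starts sphingolipid synthesis.

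Of the genes around the other 17, several act in signalling and development. Tnfsf11 (147.9, inside) encodes the cytokine RANKL, Vwc2 (150.8, 15.4 kb away) a secreted BMP antagonist, Nrp2 (117.7, inside) a receptor for semaphorins and VEGF, and Rbpj (115.6, 88.8 kb away) the DNA-binding partner of Notch. Smc2 (120.9, 570.3 kb away) encodes a condensin subunit and Cdyl (118.6, inside) a chromodomain protein of repressive chromatin. Diaph3 (145.5) encodes an actin-nucleating formin, Immp2l (142.2, inside) a protease of the inner mitochondrial membrane, Rbms3 (121.2, inside) an RNA-binding protein and Kcnh8 (115.0, inside) a potassium channel. Myl1 (117.8) encodes a muscle myosin light chain, Ugt2a3 (117.5) a glucuronosyltransferase and Zfp640 (123.4) a zinc finger protein. The others were nearest to or inside Gm28710 (135.9), 1810013L24Rik (124.9), Nckap5 (120.4, inside) and Tmem132c (118.2, inside).

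**Figure D2:**
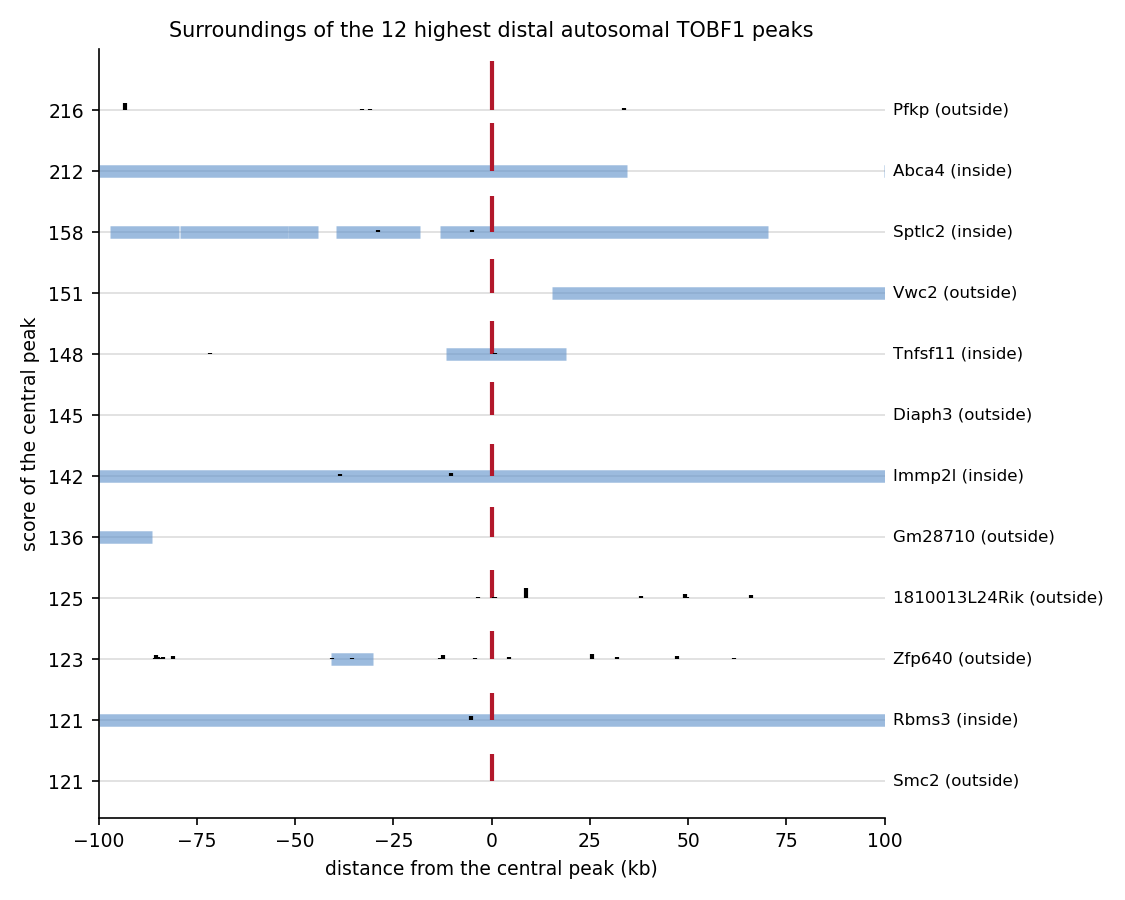
Peaks and protein-coding genes within 100 kb of the 12 highest-scoring members, drawn by distance from each member's midpoint in kb, with the member's score on the left and its nearest gene on the right. Red bars are the members, black bars other peaks with heights in proportion to score, and blue bands gene bodies. The window around the member near Pfkp (216.1) holds no protein-coding gene, and that at Abca4 (211.6) no other peak.

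Members lay inside protein-coding genes about as often as the other distal peaks. The share was 38.7% (289 of 746, 35.2 to 42.3%) against 40.5% (2990 of 7378, 39.4 to 41.7%), and the intervals overlap. Autosomal sequence more than 10 kb from gene ends amounted to 1913 Mb, of which 36.7% was inside protein-coding genes, a value within the members' interval and below that of the other distal peaks. Across score bins the share ran between 38.3% and 41.5% with no order. Among peaks of score 40 or more nearer to gene ends, 45.3% were inside a gene. Containing genes had median lengths of 213 kb (163 to 250) and 191 kb (180 to 204). A midpoint over 10 kb from both ends can only lie in a long gene, so short genes are left out by the rule. The shortest containing genes were 22.4 and 21.1 kb. Within the gene, members sat at a median of 48.9% of its length from the start, against 48.8%. The nearest gene end was the start side for 54.0% of members with a known strand and for 54.3% of the others. Whether the positions within genes are exonic or intronic was not analysed here.

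By chromosome, members were from 6.79% of the distal peaks (22 of 324, chromosome 18) to 11.0% (53 of 480, chromosome 4). Chromosome 1 held the most members, 88, and also the most distal peaks, 838, a share of 10.5% (8.51 to 12.8%). The share of members inside genes ranged from 23.9% on chromosome 13 to 50.0% on chromosome 10, each from fewer than 50 members.

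Members were wider than the other distal peaks. The median width was 351 bp (341 to 360, quartiles 293 and 429) against 207 bp (205 to 209, quartiles 165 and 262). Width and score come from the same peak call, so this difference goes with the rule and is a description. Over the score bins below 5, 5 to 10, 10 to 20, 20 to 40, 40 to 80 and 80 or more, the median width was 167, 178, 224, 279, 344.5 and 389.5 bp. Peaks of score 40 or more within 10 kb of gene ends had a median of 327 bp (315 to 343). Among members Spearman's rho between score and width was 0.233 and Pearson's r was 0.150 (n = 746 peaks of 1 library that share its depth). The rule limits the range of scores within each group, which lowers such a coefficient, so no comparison is made with the other distal peaks. Widths were 347 bp inside genes and 356 bp outside.

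The widest member, 1904 bp with a score of 45.3, lay near Ccr1, a chemokine receptor, in a run of closely spaced peaks. Those near Tmeff2 (1364 bp), Dad1 (933 bp), 2310057J18Rik (785 bp) and Pcdh17 (769 bp) followed. The Dad1 member lay 658.5 kb from the nearest gene end. The narrowest were near or inside C1qtnf7 (204 bp), Mkln1 (211 bp), Gm36448 (212 bp), Trpc6 (218 bp) and Ttll11 (219 bp). The narrow member inside Ttll11 scored 68.0, above the score of the widest.

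**Figure D3:**
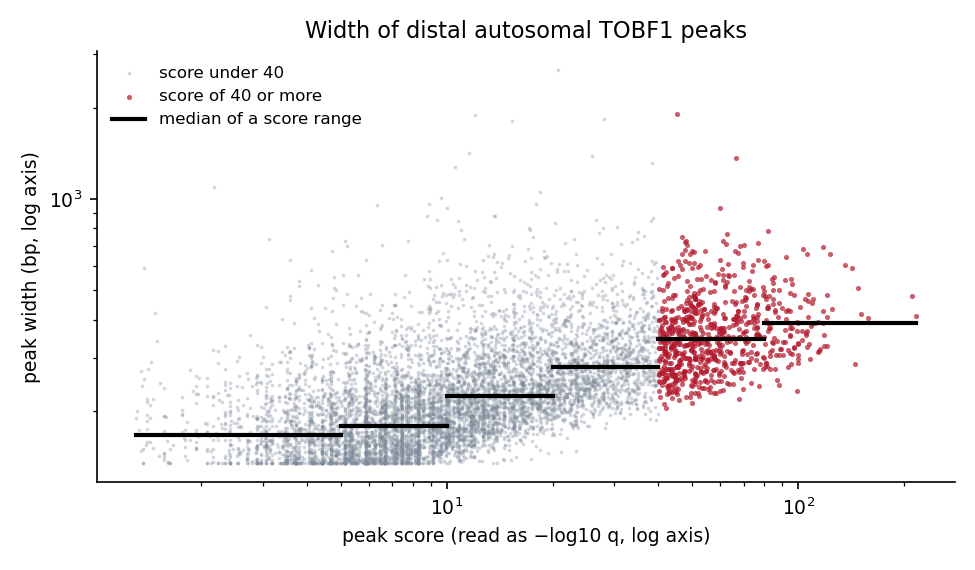
Peak width in bp against deposited score (both log axes) for members (red) and the other distal peaks (grey), 1 point per peak, with black lines at the median of each score bin. Members have a median width of 351 bp and the others 207 bp, and the medians climb from 167 bp in the lowest score bin to 389.5 bp in the highest.

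Members had another peak within 10 kb somewhat less often than the other distal peaks as a whole. Their share was like that of distal peaks scoring 20 to 40 (24.4%, 22.1 to 26.9%). Distances to the nearest peak were alike in members and other distal peaks. Another deposited peak lay within 10 kb of 24.7% of members (184 of 746, 21.6 to 27.9%), against 27.3% of the other distal peaks (26.2 to 28.3%), with overlapping intervals. Within 5 kb the shares were 15.8% (13.3 to 18.6%) and 19.9% (19.03 to 20.9%), and these intervals do not overlap. Within 1 kb they were 7.51% (5.72 to 9.64%) and 9.84% (9.17 to 10.5%), with overlap. With the score limit at 30 the intervals were apart at 10 kb as well, 23.6% (21.2 to 26.1%) against 27.6% (26.6 to 28.7%). At 50 kb they were 54.3% and 53.8%. The median distance to the nearest peak was 41.0 kb (35.3 to 48.4) against 41.8 kb (39.4 to 44.0), and 29.8% and 29.99% had no other peak within 100 kb. Distal peaks scoring below 5 had a neighbour within 10 kb more often than the other bins, in 35.5% of cases (32.8 to 38.3%). From 5 upward the bins lay between 24.3% and 26.6%. Within 1 kb the share was 16.3% below 5, 7.44% from 20 to 40 and 7.44% from 40 to 80. Among peaks nearer to gene ends the share within 10 kb was 28.0% (22.2 to 34.4%) at a score of 40 or more and 40.02% (38.3 to 41.7%) below it.

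**Figure D4:**
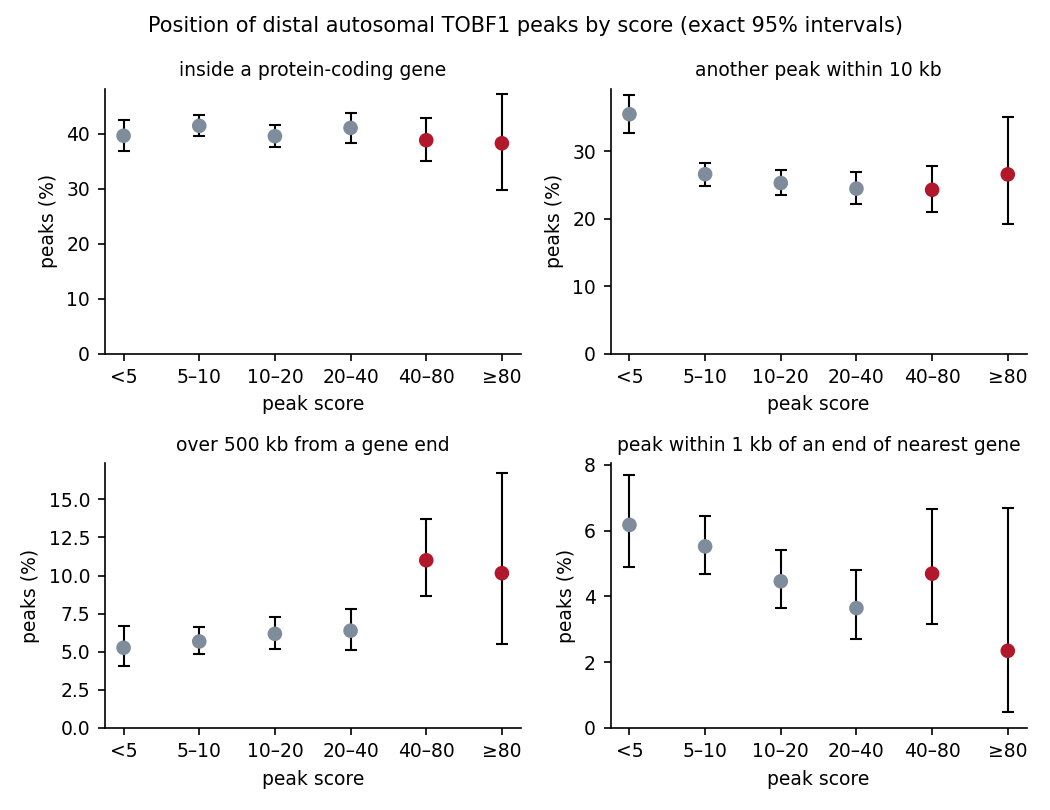
Percent of distal peaks in 6 score bins that lie inside a protein-coding gene, have another peak within 10 kb, lie over 500 kb from a gene end, or have a nearest gene with a peak within 1 kb of its own end. Points are shares, bars exact 95% intervals and red points the members' bins. The share inside genes stays between 38.3% and 41.5%, and the share over 500 kb away is 6.38% or less below a score of 40 and 11.0% and 10.2% above it.

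The nearest neighbours of the 184 members had scores like those of the whole list. Their median was 9.50 (1.37 to 106.7), against 10.03 for all autosomal peaks, and 15 (8.15%) scored 40 or more, against 8.41%. None of the 56 nearest neighbours within 1 kb reached that score (highest 34.9, median 6.21). The most isolated members were near Serpinb8 (1450 kb to the next peak, score 46.8), Zc3h12c (914 kb), 1700003H04Rik (804 kb), Wdfy4 (751 kb, inside) and Celf2 (720 kb). Their distances to the nearest gene end were 939.9, 109.7, 25.2, 62.7 and 1102 kb, in that order. Runs of at least 6 peaks, each no more than 10 kb from the next, held 6 members (0.804%, 0.296 to 1.74%) and 216 other distal peaks (2.93%, 2.55 to 3.34%), and these intervals do not overlap. These 6 were nearest to Cntnap5a (81.2), LOC115488129 (65.2), Gm46425 (61.0), Ccr1 (45.3), AU018091 (41.0) and Rps20 (41.0).

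There were 10 pairs of members within 10 kb of each other, made of 19 members. The closest, 1.01 kb apart, lay near Gm46427 (55.5 and 57.6). A pair near Tox3, an HMG-box protein gene, was 1.06 kb apart with unequal scores (106.7 and 47.3). Its members lay 423.4 and 422.3 kb from the nearest gene end. Near Trpc6, a cation channel gene, 3 members formed 2 pairs, with the middle one (45.8) lying 2.60 kb from a member of 49.6 and 1.19 kb from one of 63.1. Inside Sik2, a kinase gene, members of 81.9 and 61.7 were 4.25 kb apart, and inside Ak9, an adenylate kinase gene, members of 76.8 and 43.8 were 9.70 kb apart. The remaining pairs lay near 1810013L24Rik (8.84 kb apart), Sis (9.46 kb), Syt9 (9.66 kb) and Kcnv1 (9.74 kb). The members of the Kcnv1 pair were 896.7 and 906.4 kb from the nearest gene end.

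Members were more often very far from gene ends. The median distance to the nearest protein-coding gene end was 63.8 kb (55.2 to 73.3) against 56.4 kb (54.3 to 58.6), and the lower quartiles were alike, 24.8 and 25.02 kb. The upper quartiles were 190.4 and 149.7 kb. Beyond 500 kb lay 81 members (10.9%, 8.72 to 13.3%), against 434 other distal peaks (5.88%, 5.36 to 6.44%). Read the other way, members made up 15.7% of the 515 distal peaks beyond 500 kb (12.7 to 19.2%), against 9.18% of distal peaks overall and 8.46 to 9.02% in the classes from 10 to 20, 20 to 100 and 100 to 500 kb. Across score bins the share beyond 500 kb was 5.26, 5.67, 6.17 and 6.38% below a score of 40, 11.0% (8.65 to 13.7%) from 40 to 80, and 10.2% (5.52 to 16.7%) from 80. This comparison was chosen after the values were seen.

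**Figure D5:**
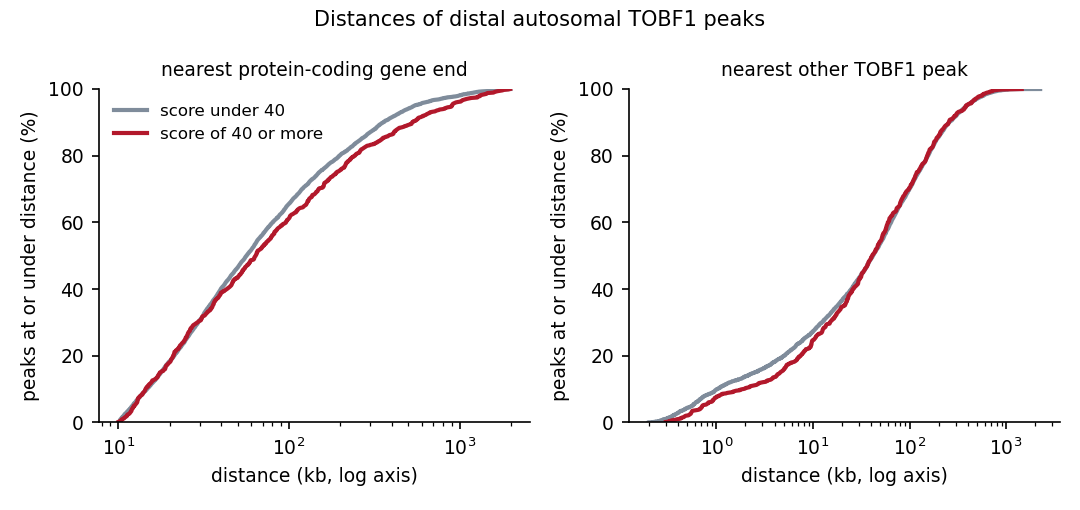
Distance to the nearest protein-coding gene end in kb on a log axis, and distance to the nearest other peak, also on a log axis, as cumulative percent of members (red) and of the other distal peaks (grey). The curves lie close for the nearest peak (medians 41.0 and 41.8 kb) and are apart at large distances for the gene end, where 10.9% of members and 5.88% of the others lie over 500 kb away.

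The 81 far members were spread over 18 chromosomes and 63 nearest genes, had a median score of 56.2 and a median width of 370 bp, and 27 of them (33.3%) had another peak within 10 kb. All but 4 lay outside genes. The farthest were near Celf4 (1972 kb, score 92.0), Lrrc4c (1927 kb, 77.6), Pcdh7 (1808 kb, 55.1), Pcdh9 (1783 kb, 61.6) and Cntnap5a (1725 kb, 81.2). These genes encode an RNA-binding protein of neurons and neuronal adhesion proteins, and such genes often border gene-poor stretches of the genome. Cntnap5b was nearest to 3 of the far members, and Lrfn5, Cntn5, Pcdh7, Pcdh9, Tenm3 and Dpp10 were among 16 genes nearest to 2.

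The nearest genes were many. The 746 members had 652 different nearest genes, and 80 genes were nearest to or contained 2 or more. These 80 had a median length of 184.6 kb, against 17.5 kb for all autosomal protein-coding genes, and 20 of them were over 500 kb long. The nearest gene had a median length of 90.1 kb over all members and 86.6 kb over the other distal peaks. Long genes, and genes beside long gaps, offer more distal sequence, which was not corrected for. Members sharing a gene are not independent of one another.

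The neuronal adhesion genes Cntn5, of a contactin, and Cntnap5b, of a contactin-associated protein, and Trpc6 were each nearest to or contained 4 members. Their highest scores were 80.8, 80.1 and 77.9. Among the genes nearest to or containing 3 members each were Immp2l (highest 142.2), the kainate receptor gene Grik2 (91.6), Auts2 (85.8), Cntnap5a (81.2), Astn2 (80.5), Sntg1 (74.3), the guanylate cyclase gene Gucy1a2 (73.7), Pcdh9 (71.2) and the cardiac ryanodine receptor gene Ryr2 (64.9). All 3 members of Auts2, and all 3 of Sntg1, were inside the gene. Lower-scoring distal peaks also lay nearest to or inside these genes, for example 14 at Cntn5, 16 at Sntg1 and 2 at Astn2.

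Of the 67 genes with 2 members, 13 held both inside the gene body. They were A830018L16Rik, Ak9, Anks1b, Bnc2, Ctnnd2, Dnah7a, Lsamp, Naaladl2, Nfib, Pard3b, Sik2, Ttn and Utrn, which include genes of the giant muscle protein titin (Ttn), of utrophin (Utrn) and of the transcription factor Nfib. In 15 genes 1 of the 2 was inside, namely Cul3, Dpp10, Ebf1, Gm40847, Hpcal1, Jarid2, Magi2, Map4k3, Ncam2, Rit2, Sash1, Tenm3, Vps41, Xkr4 and Zfp978. The other 39 had both outside. Among them were the adhesion and guidance genes Cdh2, Cdh9, Dsc3, Pcdh7, Pcdh17, Robo1 and Efna5, the regulators Id4, Nr5a2, Rbpj and Tox3, the potassium channel genes Kcnj16 and Kcnv1, and Smc2, Myl1, Cnr1, Igfbp3, Mmp16, Arrdc3, Serpinb6d, Sis, Syt9 and Slc39a10.

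Genes of the core pluripotency list, 46 in number, were nearest to or contained 8 members (1.07%, 0.464 to 2.10%), against 103 other distal peaks (1.40%, 1.14 to 1.69%). The members touched 6 of the 46 genes and the other peaks 24. The highest lay 25.2 kb outside Jarid2, a cofactor of Polycomb repressive complex 2 (72.3, 512 bp, chr13:44705307-44705818), and another lay inside it (49.3). Inside Tet2, which oxidises methylcytosine, a member scored 56.5 (429 bp, chr3:133524589-133525017). Of the transcription factor genes, Nr5a2 was nearest to members of 47.9 and 44.3 at 213.7 and 427.3 kb, Klf4 to one of 41.5 at 62.6 kb (chr4:55464359-55464671) and Klf5 to one of 40.4 at 196.9 kb. Fbxo15, an Oct4 target gene, was nearest to a member of 49.3 at 522.3 kb. The members near Klf4, Klf5 and Fbxo15 each had a second peak within 1 kb (0.541, 0.523 and 0.460 kb away). Klf4 and Fbxo15 also had a peak of their own at a gene end, within 1 kb.

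Genes of LIF, BMP, Wnt and FGF signalling (44) had 2 members (0.268%, 0.0325 to 0.965%), against 57 other distal peaks (0.773%, 0.586 to 1.00%). One was inside Lgr5, the R-spondin receptor gene (70.1, 18.97 kb from an end), and the other lay 160.3 kb from Bmp4 (61.4). Chromatin regulators (39) had 3 members (0.402%) and 19 others (0.258%). The members were near the Polycomb gene Eed (74.8), inside the demethylase gene Kdm4c (54.7) and near the remodeller gene Chd1 (54.0). Splicing factors and hnRNP genes (41) had 0 of 746 members, which allows a share of up to 0.402% (3 counts of 746, the limit used here for a count of 0), against 11 others (0.149%).

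Among lists for other cell types, neural genes (26) had 2 members (0.268%), among them one inside Dlg2 (43.7), and 49 others (0.664%). Developmental regulators of the Hox, Pax and Lhx type (36) had 3 members, against 18 others (0.402% and 0.244%). They lay inside Pax3 (55.1), 172.0 kb from Sox9 (54.1) and 130.2 kb from Shh (48.7). Blood and immune genes (25) had 2, inside Tnfsf11 (147.9) and near the receptor gene Ncr1 (51.1), and 11 others. Liver genes (27 matched) had 1, near Cyp3a11 (50.9), and 6 others. The list for mesoderm, endoderm and trophectoderm (29) had 1, near Tfap2c (51.5), and 16 others. The interval of each list's share in members overlapped that of the other distal peaks.

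Few nearest genes also had a peak of their own at an end. A peak lay within 1 kb of an end of the nearest gene for 32 members (4.29%, 2.95 to 6.002%) and for 4.97% of the other distal peaks (4.49 to 5.50%). Within 5 kb the shares were 14.7% and 15.0%.

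Genes that do not code for protein were not part of the rule. Their ends lay within 1 kb of 20 members (2.68%, 1.65 to 4.11%) and of 342 other distal peaks (4.64%, 4.17 to 5.14%). These intervals do not overlap, but they do in 6 of the 9 alternative settings that gave a value above 0, among them score limits of 30 (3.43%, 2.47 to 4.62%, against 4.63%, 4.15 to 5.16%) and 60. Of the 20, 15 were at ends of lncRNA genes and 5 at pseudogenes. The highest lay at the lncRNA gene Gm40988 (123.4), the pseudogene Gm7652 (117.5) and the lncRNA genes Gm5441 (108.6) and Gm20609 (100.1), and another at C130071C03Rik (52.6), which neighbours the transcription factor gene Mef2c. Inside lncRNA genes lay 8.45% of members (6.55 to 10.7%) and 10.5% of the others (9.77 to 11.2%). Inside pseudogenes lay 5 members (0.670%, 0.218 to 1.56%) and 1.25% of the others (1.01 to 1.53%). No member of the 746 overlapped a small RNA gene, which by the same limit allows up to 0.402%, while 17 others did (0.230%).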

How the data were processed

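ChIP-Seq reads of the TOBF1 library were processed on mm10, for which the submitters' processing notes name bedtools, MACS2, Bowtie2 and cutadapt. Settings, and the control of the peak call, were not given in the sources used here. Peak scores were deposited without a unit and taken as −log10 q, since the lowest lies just above −log10 of 0.05 (1.301). It depends on depth and local background and was compared only within the list.

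Distances were taken from peak midpoints to both ends of protein-coding genes of RefSeq GRCm38.p6, and a peak was inside a gene when its midpoint lay between them. Strand and starts came from the RefSeq promoter table, which lacks some genes. The gene lists and the members were chosen with earlier results of these data known, so no list is independent evidence. The rule for named genes took the 20 highest members, those of the core pluripotency and signalling lists, the 5 farthest, most isolated, widest and narrowest members, those next to the thresholds, members within 10 kb of each other, genes with 2 or more members (of the 39 with both members outside, a part is named) and up to 4 per other list. A few genes under this rule are not reported here. Other named genes were chosen after their values were seen, as was the Sox core motif. The planned exon classes, and motif counts in windows centred on peaks, were not run without a genome. Alternatives were other score and distance limits, edge distances, genes of every type, chromosome X, merged peaks, no dense regions and other windows. The methods were tested on simulated data. Software was pandas 2.3.3, SciPy 1.17.1, NumPy 2.4.6 and matplotlib 3.10.9 under Python 3.11.15.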

Additional observations from a re-analysis of the deposited data

Results flagged for a closer look

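On chromosome X, which the rule leaves out, 16 of 339 distal peaks had a score of 40 or more (4.72%), with a highest score of 97.2. They are listed because they lie in data outside the comparisons. Of the 16, 4 lay in runs of 6 or more closely spaced peaks.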

How the results depend on the processing

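The number of members was 1196 at a score of 30 and 296 at 60. The median width was 331 bp at 30, 376 bp at 60 and 362 bp with peaks within 1 kb merged, and it was above that of the other distal peaks in all 10 alternatives. The median distance to a gene end was 47.9 kb with a limit of 5 kb and 90.3 kb with one of 20 kb, which the limits themselves set. The share with a neighbour was 18.3% after merging (others 18.7%), 24.1% without dense regions (others 25.1%), 15.8% within 5 kb and 54.3% within 50 kb. It was below the others' share in 10 of 12 alternatives and above it at a score of 60 (27.7% against 27.0%) and within 50 kb. A peak at an end of the nearest gene was found for 14.7% with a 5 kb window. Ends of other gene types were near 12.6% with a 5 kb window (others 15.8%), and near 0 when the rule used genes of every type, by construction. The share inside genes moved between 36.1 and 42.3% and was below the others' share in all 11 alternatives, and the share over 500 kb away moved between 9.48 and 13.2% and was above it in all 9. The core pluripotency share was 0.338% at a score of 60. Leaving out members with a neighbour within 1 kb, leaving out chromosome 1, and every alternative for the core pluripotency and over 500 kb shares were chosen after seeing the data. No paired analysis was possible because there was 1 library. Depth is unknown and limits how firmly weak peaks can be compared.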

Other observations

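Nearest genes were also grouped by symbol, with the groups chosen after the values were seen. Contactin and contactin-associated genes (Cntn, Cntnap), which encode neuronal adhesion proteins, were nearest to 11 members (1.47%, exact 95% interval 0.738 to 2.62%) and 0.718% of the other distal peaks (0.539 to 0.939%). Cntn5 and Cntnap5b each were nearest to or contained 4 members and Cntnap5a 3, so these members are not independent. Potassium channel genes (Kcn) were nearest to 10 members (1.34%, 0.645 to 2.45%) and 0.664% of the others (0.492 to 0.877%). Cadherins and protocadherins were nearest to 15 members (2.01%) and 1.57% of the others, and zinc finger genes with Zfp symbols to 15 (2.01%) and 2.11%. Serpins, a family of protease inhibitors in gene clusters, were nearest to 4 members (0.536%, 0.146 to 1.37%), of which 2 were nearest to Serpinb6d, and to 4 others (0.0542%, 0.0148 to 0.139%). Solute carriers were nearest to 7 members (0.938%, 0.378 to 1.92%) and 1.87% of the others (1.57 to 2.21%). Glutamate receptor genes, olfactory and vomeronasal receptor genes, Ugt and Cyp genes, and genes with Gm symbols were also counted. In all groups but the serpins the intervals of members and others overlap. All are counts of nearest genes, with no test.

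Starts of protein-coding genes in the promoter table, which lacks some genes, lay within 1 kb of 5 of 724 members (0.691%, 0.225 to 1.60%). They lay within 1 kb of 23 of 7076 others (0.325%, 0.206 to 0.487%). All 5 were starts inside a gene, of 1700019D03Rik, Trp53bp1, Myo10, Abcg2 and Mtf2. Exactly equal scores were shared by 292 members (39.1%) and by 85.4% of the other distal peaks.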
